A study of Saccharomyces cerevisiae with 24 samples.

Results

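The genes described here make phospholipids from inositol, serine and choline, bring inositol and choline into the cell, or control those genes. They were chosen by name from the counts of a yeast hypoxia time course: INO1 (YJL153C), ITR1 (YDR497C), CHO1 (YER026C), PSD1 (YNL169C), CHO2 (YGR157W), OPI3 (YJR073C), HNM1 (YGL077C), INO2 (YDR123C) and OPI1 (YHL020C), 9 of the 7140 features listed. All 9 were among the 6262 features that passed a filter on low counts, and PIS1, which was named with them but without an identifier, is described with the wider pathway. Polyadenylated RNA was sequenced from 24 cultures of Saccharomyces cerevisiae, at 7 times from 5 to 240 min under 100% nitrogen and at 0 min in air, in 3 biological replicates of the time course, called courses 1, 2 and 3 here. All cultures had the genotype MATa ura3Δ0 his3Δ200 leu2Δ0 lys2-128δ HAP1, a derivative of S288C in which the HAP1 gene for a heme-responsive activator is repaired. Cells grew in YPD, a rich glucose medium, with neither ergosterol nor unsaturated fatty acids added. The 0 min sample was taken first and the remaining cells were then diluted into flasks sparged with nitrogen, so in every comparison with 0 min the loss of oxygen cannot be told apart from dilution, and no diluted culture kept in air was analysed here.

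In yeast, phosphatidic acid is turned into CDP-diacylglycerol, the branch point from which phosphatidylinositol is made with inositol and phosphatidylserine with serine. Phosphatidylserine is decarboxylated to phosphatidylethanolamine and methylated to phosphatidylcholine, while the Kennedy pathway makes the same end products from imported or recycled ethanolamine and choline. Genes of these steps carry an inositol-sensitive upstream element that is bound by the Ino2-Ino4 activator. The Opi1 repressor is held at the endoplasmic reticulum by phosphatidic acid, and enters the nucleus to repress these genes when inositol uses that lipid up.

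The element's core, CATGTG on either strand, was searched in the 500 bases before each start codon, because it is the one sequence feature through which these genes are known to be controlled together. It lay upstream of 8 of the 9 genes (88.9%), against 13.2% of 6000 protein-coding genes and 24.4% of 41 other genes of phospholipid metabolism. Because the genes are known to share this control, their high share follows from which genes were named and is not an enrichment found here. A match describes the letters in this window and is neither a measured binding site nor a cause. The capitals mark the core in the following stretches, which read 5′ to 3′ on the strand of the gene and come from the RefSeq copy of assembly R64.
INO1, core on the gene's strand, 243 bases before the start codon, chrX:136161-136186, minus strand: ctaaatgcggCATGTGaaaagtattg
INO1, core on the other strand, 178 bases before, chrX:136096-136121, minus strand: ttatttaattCACATGgagcagagaa
ITR1, core on the gene's strand, 221 bases before, chrIV:1445673-1445698, minus strand: ttccccaccgCATGTGaaaaaagctc
CHO1, core on the other strand, 159 bases before, chrV:208618-208643, minus strand: tttgagctttCACATGgacccatcta
PSD1, core on the gene's strand, 164 bases before, chrXIV:317820-317845, minus strand: caggcacaagCATGTGgaaaatttgt
CHO2, core on the gene's strand, 267 bases before, chrVII:802163-802188, plus strand: attcccttctCATGTGaagagttcac
OPI3, core on the gene's strand, 212 bases before, chrX:573132-573157, minus strand: aatgagagtgCATGTGgaaagttgca
HNM1, core on the other strand, 267 bases before, chrVII:364168-364193, minus strand: tcttttttttCACATGcgcagaacct
INO2, core on the gene's strand, 144 bases before, chrIV:699597-699622, minus strand: gtacaacacaCATGTGaatttttttc
ITR1 and CHO2 had 3 matches to the core each, INO1, PSD1, OPI3 and INO2 had 2, and CHO1 and HNM1 had 1. In CHO2 and INO2, 2 of the matches overlapped on opposite strands. They lay 338 and 336 bases before the start codon in CHO2, and 146 and 144 bases before it in INO2. No match to these letters was present in the 500 bases before OPI1.

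Total counts per library ranged from 4980240 to 16346113, and the counts of the 9 genes from 46 for INO1 in its lowest library to 18974 for ITR1 in its highest. Libraries of one time differed between courses by far more than counting error, and the chi-square per degree of freedom was 21.5 to 54.2 for courses 2 and 3, and 163 to 312 where course 1 was one of the pair. The mating-type a genes MFA1, MFA2, STE2, STE6 and BAR1 had reads in all 24 libraries. The alpha-cell gene MFALPHA1 had at most 5 counts, MFALPHA2 0 to 93 and STE3 31 to 206, and the deleted genes URA3, HIS3 and LEU2 had at most 2 counts, as the genotype states. At 0 min the library of course 3 was the highest of the 3 for 7 of the 9 genes, and that of course 1 was the lowest for 7, so the comparisons with 0 min also carry a spread among the aerobic samples. DAN1, a cell wall gene of anaerobic cells, stood at 1921 to 4408 CPM (counts per 1000000 counted reads) at 240 min, against 1.51 to 22.7 CPM at 0 min. The summed level of 3 general stress genes (HSP12, TSL1 and CTT1) was 1901 to 3050 CPM at 30 min and 369 to 464 CPM at 240 min, against 27.5 to 64.1 CPM at 0 min. The part of that stress response in the values below was not tested.

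Levels are given as CPM after scaling each library by its TMM factor (trimmed mean of M values), so each is a share of the library, and less of one mRNA per cell cannot be told apart from more of the others. Per kilobase of coding sequence and averaged over the 24 libraries, the inositol transporter gene ITR1 was the highest at 597 CPM per kb, followed by HNM1 at 248, CHO2 at 179, OPI3 at 165 and CHO1 at 120. PSD1 at 58.7, INO2 at 58.5 and OPI1 at 54.5 CPM per kb came next, and INO1 was last at 8.77. At 240 min the mean levels per kilobase were 749 ± 75.1 for ITR1, 332 ± 34.6 for HNM1, 279 ± 36.3 for OPI3, 176 ± 25.3 for CHO2, 133 ± 66.7 for CHO1, 98.3 ± 11.2 for INO2, 56.6 ± 23.2 for OPI1, 55.6 ± 9.10 for PSD1 and 21.6 ± 4.15 CPM per kb for INO1 (SD, n = 3). In that order the neighbours HNM1 and OPI3, CHO2 and CHO1, CHO1 and INO2, and OPI1 and PSD1 lay within their spread of one another. At 0 min the corresponding means were 631 ± 363 for ITR1, 289 ± 150 for HNM1, 149 ± 40.6 for CHO2, 122 ± 31.3 for CHO1, 114 ± 56.7 for OPI3, 86.0 ± 45.8 for PSD1, 84.5 ± 10.9 for OPI1, 60.3 ± 19.2 for INO2 and 4.51 ± 1.58 CPM per kb for INO1. OPI3 was above both CHO2 and CHO1 at 240 min and within their spread at 0 min, and INO1 was the lowest of the 9 at both times.

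**Figure D1:**
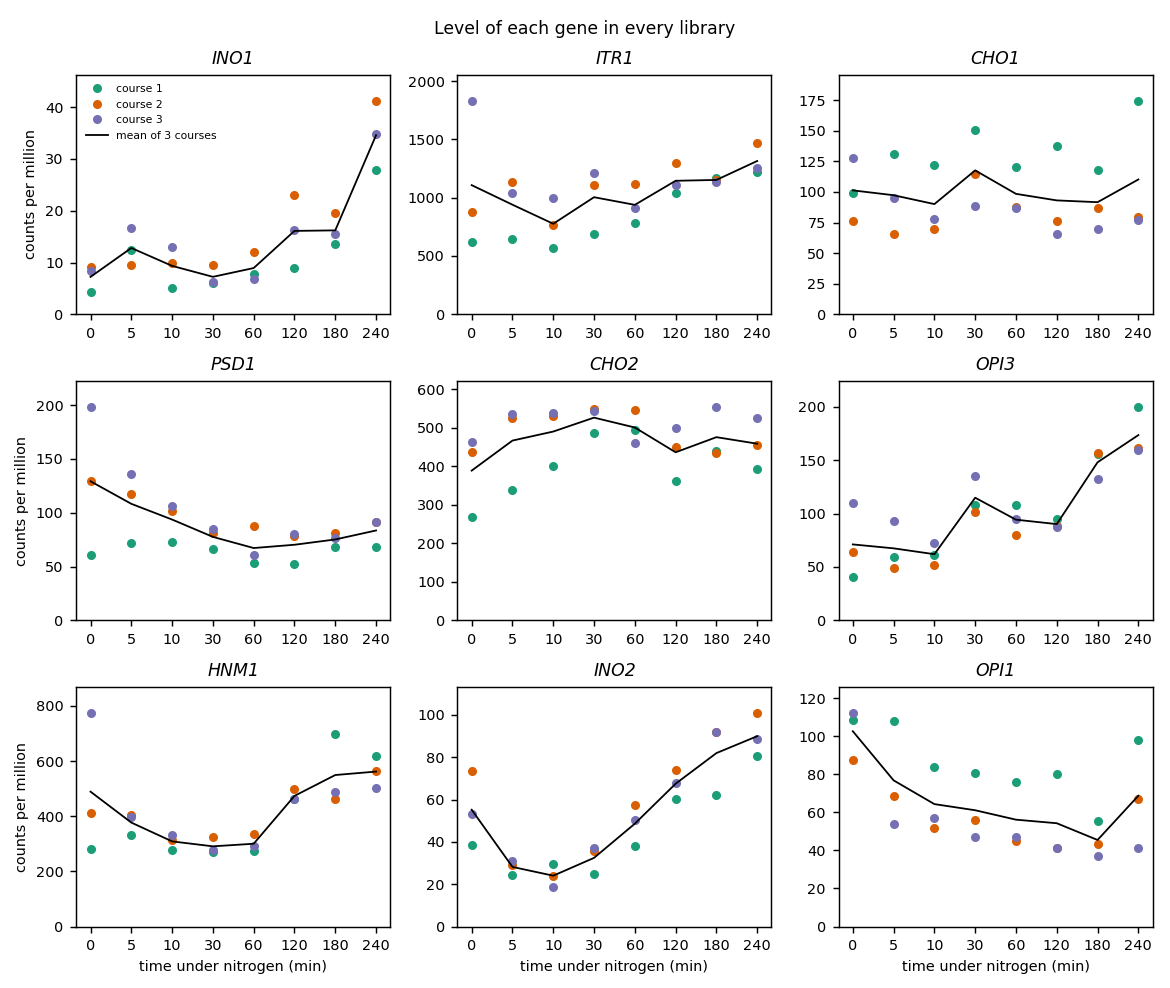
CPM (vertical axis, linear, from 0) of each of the 9 genes against time under nitrogen (horizontal axis, in min, the 8 times evenly spaced). Points are single libraries coloured by course and the line joins the means of the 3 courses. INO1 and OPI3 are highest at 240 min, where INO1 lies between 27.9 and 41.2 CPM, INO2 dips to 18.6 to 29.6 CPM at 10 min before it climbs, and the 0 min point of course 3 stands above the others for ITR1, HNM1 and PSD1.

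A gene was called changed at a Benjamini-Hochberg adjusted p under 0.05 over all 6262 genes and at least a 2-fold change, with edgeR's quasi-likelihood test on all 24 libraries. Over the whole time course 3 of the 9 genes were called, INO1, OPI3 and INO2, where 19.8% of all genes were. With the course as a replicate block the test also called OPI1, where 29.2% of all genes were called. The count was 4 without course 1 (INO1, PSD1, INO2 and OPI1), where 2065 of 5875 genes were called. It was 0 without course 2 (340 of 6319 genes) and 2 without course 3 (OPI3 and INO2, with 475 of 6293 genes). With the block it was 4 without course 1 (the same genes), 3 without course 2 (INO1, OPI3 and OPI1) and 2 without course 3 (INO1 and OPI3). All genes called with the block were then 2078, 1480 and 1582, in that order. Each course was also tested alone for a change with time and its square by DESeq2, as the study did with 1 course. The study's other method, a permutation test named AutoCor, was not run here. DESeq2 called 5 of the 9 genes for course 1, 2 for course 2 and 2 for course 3. Of all genes with at least a 2-fold range it called 24.5%, 19.5% and 14%. Genes below that range could not be called. These were CHO1, PSD1 and OPI1 in course 1, CHO1, PSD1, CHO2, HNM1 and OPI1 in course 2, and ITR1, CHO1 and CHO2 in course 3. These ranges were taken on counts scaled to equal library totals, with low ones raised to the study's floor, and not on CPM. INO1 passed in all 3 courses taken alone, with adjusted p of 0.00265, 2.7e-07 and 0.0496 in courses 1, 2 and 3 and ranges of 7.34, 5.53 and 5.82-fold. OPI3 passed in courses 1 and 2, INO2 in courses 1 and 3, and ITR1 and HNM1 in course 1.

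INO1 encodes inositol-phosphate synthase, the enzyme that begins inositol synthesis from a sugar phosphate. It gave the largest change of the 9 genes, and no library before 240 min reached the levels of that time. Its levels in courses 1, 2 and 3 were 4.33, 9.05 and 8.28 CPM at 0 min, 12.3, 9.45 and 16.7 CPM at 5 min, 5.11, 9.98 and 13.0 CPM at 10 min, 5.96, 9.43 and 6.32 CPM at 30 min, 7.87, 12.1 and 6.86 CPM at 60 min, 8.94, 23.0 and 16.3 CPM at 120 min, 13.5, 19.6 and 15.6 CPM at 180 min and 27.9, 41.2 and 34.7 CPM at 240 min. The 3 libraries at 240 min were the 3 highest of all 24 and none of them overlapped those at any other time. The mean was 34.6 ± 6.65 CPM at 240 min, against 7.22 ± 2.53 CPM at 0 min (SD, n = 3), a log2 fold change of 2.26 ± 0.43 (SE; edgeR adjusted p = 0.000551), and 177 of the 6262 genes had a larger one. It passed without any one course, with adjusted p from 7.34e-05 to 0.0429. Against 30 min, whose mean was 7.23 ± 1.91 CPM, the log2 fold change at 240 min was 2.25 ± 0.43 (adjusted p = 0.00176), and leaving out course 2 or course 3 took the adjusted p above the threshold, to 0.0954 or 0.15. With the course as a replicate block INO1 was called in that comparison without any 1 course.

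The calls of INO1 at intermediate times depended on how the course was treated, on the tool and on the scaling. At 120 min, with 16.1 ± 7.05 CPM, the log2 fold change against 0 min was 1.16 ± 0.41 and missed the threshold (adjusted p = 0.0648). At 180 min, with 16.2 ± 3.08 CPM, it was 1.17 ± 0.41 (adjusted p = 0.0515), and the libraries of 180 min did not overlap those of 0 min. With the course as a replicate block both passed, at 1.14 (adjusted p = 0.00559) for 120 min and 1.20 (adjusted p = 0.00329) for 180 min. Both also passed in DESeq2, at 1.20 (adjusted p = 0.0175) and 1.22 (adjusted p = 0.0134), and in edgeR with total counts in place of TMM factors, at 1.41 (adjusted p = 0.0115) and 1.38 (adjusted p = 0.0108). With RLE factors the value at 180 min passed (1.21, adjusted p = 0.0398) and that at 120 min did not (1.19, adjusted p = 0.0516). INO1 had the fewest reads of the 9 genes, 46 to 510 counts per library.

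ITR1 encodes the main inositol transporter of the plasma membrane, the other route by which the cell gains inositol. Its levels at 240 min were 1221, 1465 and 1258 CPM in courses 1, 2 and 3, against 619, 876 and 1827 CPM at 0 min, so that courses 1 and 2 were higher and course 3 lower. The courses drew together with time, to 1170, 1150 and 1136 CPM at 180 min. At 240 min the mean was 1315 ± 132 CPM, against 1107 ± 637 CPM at 0 min (SD, n = 3), and the log2 fold change of 0.25 ± 0.32 did not pass the test (edgeR adjusted p = 0.705). Without course 3's 0 min library it was 0.81 (adjusted p = 0.0677). The replicate block alone gave 0.33 (adjusted p = 0.262), and both changes together gave 0.78, which passed (adjusted p = 0.00225) below 2-fold. In between, the mean of ITR1 was lowest at 10 min, with 564, 763 and 1001 CPM, although course 3 was lowest at 60 min, with 914 CPM.

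CHO1 encodes phosphatidylserine synthase, which draws CDP-diacylglycerol into the route to phosphatidylethanolamine and phosphatidylcholine. It was not called at any time, and the courses disagreed in direction. At 240 min its levels were 174, 79.2 and 77.2 CPM in courses 1, 2 and 3, against 99.4, 76.3 and 128 CPM at 0 min, so that course 1 was higher, course 3 lower and course 2 nearly level. The mean was 110 ± 55.5 CPM at 240 min, against 101 ± 26.0 CPM at 0 min, a log2 fold change of 0.12 ± 0.36 (adjusted p = 0.911). Without course 1 that value was -0.32, and over the time course CHO1 had an adjusted p of 1 (edgeR).

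PSD1 encodes the phosphatidylserine decarboxylase of the inner mitochondrial membrane. Its levels were 60.5, 129 and 198 CPM at 0 min in courses 1, 2 and 3, 66.4, 81.2 and 85.3 CPM at 30 min, 53.1, 87.9 and 60.8 CPM at 60 min, and 67.8, 91.6 and 91.4 CPM at 240 min. Courses 2 and 3 were below their own 0 min library at each later time shown, while course 1 began low and moved little. The log2 fold change was -0.94 ± 0.33 at 60 min (edgeR adjusted p = 0.0519), -0.88 ± 0.32 at 120 min (adjusted p = 0.0768) and -0.63 ± 0.32 at 240 min (adjusted p = 0.19), and none passed. With the course as a replicate block all 3 passed the adjusted p, at -0.87 (adjusted p = 0.0015), -0.82 (adjusted p = 0.00264) and -0.55 (adjusted p = 0.0287), each below 2-fold. Over the time course the adjusted p was 0.239, and 0.00588 with the block. PSD2, which encodes a second decarboxylase outside the mitochondrion, stood at 95.2 ± 7.74 CPM at 240 min, against 102 ± 21.3 CPM at 0 min, a log2 fold change of -0.10 ± 0.21 (adjusted p = 0.855).

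CHO2 and OPI3 encode the methyltransferases that turn phosphatidylethanolamine into phosphatidylcholine, Cho2 adding the first methyl group and Opi3 the following ones. OPI3 was called higher at 180 and 240 min, and CHO2 was not called at any time. The difference between them is given with the ratios of genes within a library. OPI3 stood at 40.2, 63.7 and 109 CPM at 0 min in courses 1, 2 and 3, 59.5, 49.4 and 93.4 CPM at 5 min, 60.8, 52.3 and 72.7 CPM at 10 min, 108, 102 and 135 CPM at 30 min, 108, 79.7 and 95.3 CPM at 60 min, 95.1, 88.0 and 87.3 CPM at 120 min, 156, 156 and 132 CPM at 180 min and 199, 162 and 159 CPM at 240 min. All 6 libraries of 180 and 240 min except that of course 3 at 180 min were above each library of the earlier times, and that one, at 132 CPM, was exceeded among the earlier libraries only by course 3 at 30 min.

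The mean of OPI3 was 173 ± 22.6 CPM at 240 min, against 71.1 ± 35.2 CPM at 0 min (SD, n = 3), a log2 fold change of 1.29 ± 0.28 (edgeR adjusted p = 0.00187). At 180 min the log2 fold change was 1.06 ± 0.28 (adjusted p = 0.00898). Without course 2 neither passed, with adjusted p of 0.0933 at 240 min and 0.232 at 180 min. Without course 1 both were below 2-fold and so not called, at 0.96 (adjusted p = 0.00725) for 240 min and 0.79 (adjusted p = 0.0248) for 180 min. With the course as a replicate block OPI3 was called at 240 min without course 2 or course 3, and not without course 1. At 30 min the log2 fold change was 0.69 ± 0.28 (adjusted p = 0.0747), and passed the adjusted p with the course as a replicate block (0.72, adjusted p = 0.0138) and without course 3's 0 min library (1.14, adjusted p = 0.00303).

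CHO2 had 267, 436 and 463 CPM at 0 min in courses 1, 2 and 3, 486, 547 and 544 CPM at 30 min and 394, 455 and 526 CPM at 240 min. The libraries of 30 min were all above those of 0 min, and those of 240 min overlapped them. The log2 fold change against 0 min was 0.44 ± 0.22 at 30 min (edgeR adjusted p = 0.177) and 0.24 ± 0.22 at 240 min (adjusted p = 0.536). The value at 30 min passed the adjusted p with the course as a replicate block (0.47, adjusted p = 0.0103) and with total counts in place of TMM factors (0.69, adjusted p = 0.00329), a scaling that moved the median of all genes to 0.25 on the log2 scale at 30 min. With total counts the value at 240 min also passed the adjusted p (0.52, adjusted p = 0.0233), where that scaling moved the median to 0.24.

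HNM1 encodes the plasma membrane transporter of choline, which feeds the Kennedy pathway. It was low from 10 to 60 min and high from 120 min on. Its levels were 281, 413 and 773 CPM at 0 min in courses 1, 2 and 3, 278, 315 and 333 CPM at 10 min, 272, 324 and 277 CPM at 30 min, 274, 336 and 291 CPM at 60 min, 461, 497 and 463 CPM at 120 min, 699, 463 and 486 CPM at 180 min and 620, 563 and 503 CPM at 240 min. The libraries of 120, 180 and 240 min all lay above those of 10, 30 and 60 min. The log2 fold change at 240 min against 30 min was 0.95 ± 0.26 (edgeR adjusted p = 0.0237), just under 2-fold, with means of 562 ± 58.5 CPM at 240 min and 291 ± 28.5 CPM at 30 min, and leaving out course 2 or course 3 took the adjusted p to 0.313 or 0.163. With the course as a replicate block HNM1 was called in that comparison without course 2, and not without course 1 or course 3.

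Against 0 min the fall of HNM1 at 30 min, -0.75 ± 0.26 (adjusted p = 0.0387), rested on 1 aerobic library. Without the 0 min library of course 3 it was -0.26 (adjusted p = 0.496), with total counts in place of TMM factors -0.48 (adjusted p = 0.151), and without a filter on low counts -0.71 (adjusted p = 0.0578). Over the time course HNM1 had an adjusted p of 0.0159 with no change of 2-fold against 0 min, and 0.425 without course 2 or 0.127 without course 3. At 240 min the log2 fold change against 0 min was 0.20 ± 0.26 (adjusted p = 0.699), and without that library it was 0.69 (adjusted p = 0.0298).

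INO2 encodes the activator subunit that, paired with Ino4, binds the element shown above. It had the smallest adjusted p over time of the 9 genes (1.52e-05, edgeR) and moved in both directions: it fell within 5 to 10 min and then climbed. In courses 1, 2 and 3 it stood at 38.7, 73.7 and 53.3 CPM at 0 min, 24.4, 29.3 and 30.8 CPM at 5 min, 29.6, 23.9 and 18.6 CPM at 10 min, 25, 35.5 and 36.9 CPM at 30 min, 38.1, 57.4 and 50.3 CPM at 60 min, 60.3, 74.1 and 68.0 CPM at 120 min, 62.0, 91.9 and 92.1 CPM at 180 min and 80.4, 101 and 88.8 CPM at 240 min. All libraries of 5, 10 and 30 min lay below all libraries of 0 min, and all those of 240 min lay above them.

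Against 0 min the log2 fold change of INO2 was -0.97 ± 0.24 at 5 min (edgeR adjusted p = 0.0151), -1.20 ± 0.24 at 10 min (adjusted p = 0.00143), -0.76 ± 0.24 at 30 min (adjusted p = 0.0235) and 0.71 ± 0.24 at 240 min (adjusted p = 0.0402). Only the value at 10 min also reached 2-fold, and without course 2 or course 3 it missed the threshold (adjusted p = 0.193 and 0.168), as did the other 3 values. With the course as a replicate block and all courses, INO2 passed the adjusted p at each of these times. The values were -0.94 (adjusted p = 0.000903) at 5 min and -1.14 (adjusted p = 5.76e-05) at 10 min. They were -0.75 (adjusted p = 0.00241) at 30 min and 0.73 (adjusted p = 0.0027) at 240 min, and only that at 10 min reached 2-fold. Without the block, the value at 30 min missed the threshold with total counts in place of TMM factors (-0.53, adjusted p = 0.0651), and that at 240 min missed it without course 3's 0 min library (0.68, adjusted p = 0.115). At 240 min against 30 min INO2 rose by 1.47 ± 0.25 on the log2 scale (adjusted p = 0.000591), with means of 90.0 ± 10.2 CPM at 240 min and 32.5 ± 6.53 CPM at 30 min, and the adjusted p was 0.0749 without course 2 and 0.0681 without course 3. With the course as a replicate block INO2 was called in that comparison without any 1 course. The summed stress genes were at 512 to 2332 CPM at 10 min, against 27.5 to 64.1 CPM at 0 min, and their part in the early fall was not tested.

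INO4, which encodes the partner of Ino2, was not called at any time compared with TMM factors. Its mean was 34.5 ± 4.67 CPM at 5 min, against 28.2 ± 2.33 CPM at 0 min. At 240 min it stood at 51.0 ± 10.6 CPM, against 28.2 ± 2.33 CPM at 0 min (SD, n = 3), a log2 fold change of 0.85 ± 0.28 (edgeR adjusted p = 0.0342) that was below 2-fold. With total counts in place of TMM factors it was 1.12 (adjusted p = 0.0334), which passed both the adjusted p and the fold minimum. It missed the threshold without course 3's 0 min library (0.79, adjusted p = 0.118) and without course 2 or course 3 (adjusted p = 0.184 and 0.204). With the course as a replicate block and all courses, the value of INO4 at 240 min was 0.83 (adjusted p = 0.000476), below 2-fold. Over the time course its adjusted p was 0.0826 in edgeR, 0.000295 with the block and 0.0306 in DESeq2. Whether INO2 and INO4 differed in their change at 5 min was not tested.

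OPI1 encodes the repressor of these genes. Its levels in courses 1, 2 and 3 were 108, 87.5 and 112 CPM at 0 min, 108, 68.8 and 53.7 CPM at 5 min, 84.1, 52.0 and 57.0 CPM at 10 min, 80.5, 56.1 and 46.8 CPM at 30 min, 76.0, 45.2 and 47.3 CPM at 60 min, 80.3, 41.2 and 41.4 CPM at 120 min, 55.5, 43.6 and 37.3 CPM at 180 min and 97.8, 67.0 and 41.5 CPM at 240 min. All libraries of 10 to 180 min lay below all those of 0 min, and at 240 min all 3 courses were again higher than at 180 min. At 180 min OPI1 fell by 1.18 ± 0.35 on the log2 scale against 0 min (edgeR adjusted p = 0.0203), which was not passed with total counts in place of TMM factors (-0.996, adjusted p = 0.126), without course 3's 0 min library (-1.11, adjusted p = 0.0651), or without course 2 or course 3 (adjusted p = 0.25 and 0.224). With the course as a replicate block OPI1 was called at 180 min, at -1.21 (adjusted p = 1.17e-05). At 5, 10, 30 and 60 min OPI1 did not pass (edgeR adjusted p of 0.674, 0.231, 0.13 and 0.0965). With the course as a replicate block it passed the adjusted p at these times, each below 2-fold. The values were -0.50 (adjusted p = 0.0496), -0.73 (adjusted p = 0.0027), -0.81 (adjusted p = 0.000747) and -0.93 (adjusted p = 0.000236). At 120 min the value was -0.92 ± 0.35 (adjusted p = 0.0821), and with the block -1.01 (adjusted p = 0.000123). At 240 min it was -0.58 ± 0.34 (adjusted p = 0.272), and with the block -0.67 (adjusted p = 0.00414).

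**Figure D2:**
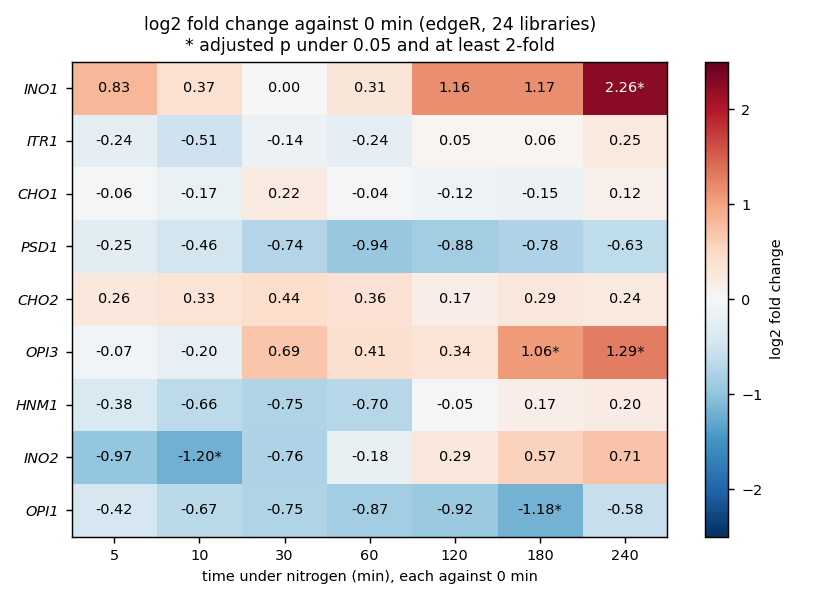
Fitted log2 fold change of each gene (rows) at 7 times under nitrogen (columns, in min), each against 0 min, printed in the cell and coloured red for higher and blue for lower. Asterisks mark an adjusted p under 0.05 with at least a 2-fold change in edgeR over 24 libraries: INO1 at 240 min (2.26), OPI3 at 180 and 240 min (1.06 and 1.29), INO2 at 10 min (-1.20) and OPI1 at 180 min (-1.18).

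Set time by time against 0 min, edgeR called none of the 9 genes at 5 min, where 5.92% of all genes were called, and 1, INO2, at 10 min, where 11.9% were. At 30 min it called none (17.8% of all genes), at 60 min none (11.6%) and at 120 min none (10.4%). At 180 min it called 2, OPI3 higher and OPI1 lower (13.6%), and at 240 min 2, INO1 and OPI3, both higher (15.6% in either direction, 7.14% higher). Without the fold minimum 1 gene passed at 5 min, INO2 (8.8% of all genes), and 2 at 30 min, HNM1 and INO2 (25.7%). At an unadjusted p under 0.05 the counts at 5, 30, 60 and 120 min were 1, 5, 3 and 3, and DESeq2 called 0, 0, 0 and 1. Over all 6262 genes DESeq2 called 428 at 5 min, 1196 at 30 min and 717 at 120 min. At 180 min DESeq2 called 3, INO1 as well as OPI3 and OPI1. Shares over all genes are not given for the unadjusted p, or for DESeq2 at 60 and 180 min, so no result is read from those counts. With the course as a replicate block 2 genes were called at 120 min, INO1 higher and OPI1 lower, where 13.7% of all genes were. The median log2 fold change of the 9 genes was -0.14 at 30 min and 0.24 at 240 min, beside medians of 0.01 and -0.02 over all genes tested. At 240 min against 30 min edgeR called INO1 and INO2, both higher, where 6.2% of all genes were called in either direction and 3.19% higher. It called none without course 2 (77 of 6319 genes) or without course 3 (92 of 6293). With the course as a block it called INO1, HNM1 and INO2 without course 2 (566 of 6319 genes), and INO1 and INO2 without course 3 (450 of 6293). At 240 min against 120 min edgeR called none of the 9 (0.303% of all genes; 2 at an unadjusted p under 0.05, and 0 by DESeq2), and 1, INO1, with the block (1.02%).

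**Figure D3:**
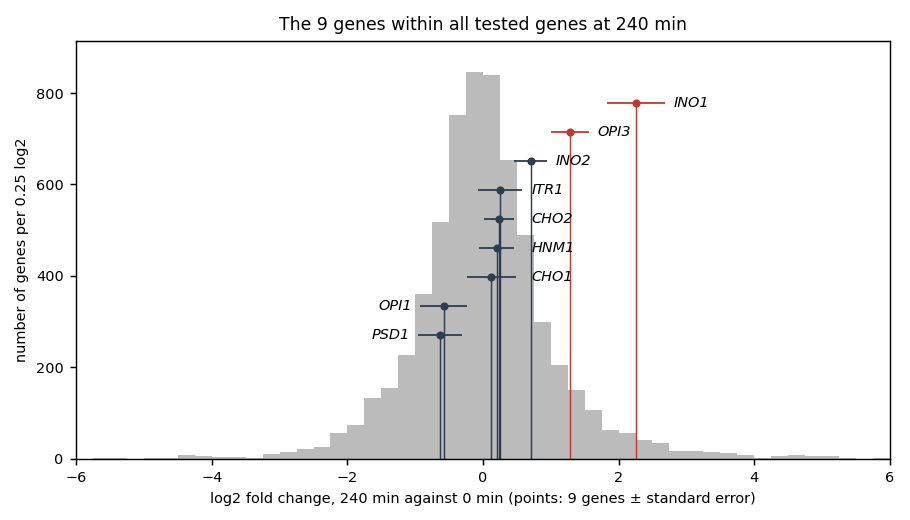
Histogram of the log2 fold changes of the 6262 genes tested at 240 min against 0 min (horizontal axis, bars 0.25 wide; vertical axis, number of genes). Points with bars are the 9 genes with their standard errors, set at different heights only to keep the names apart, and the 2 called genes, INO1 at 2.26 and OPI3 at 1.29, are in red. The other 7 lie between -0.63 for PSD1 and 0.71 for INO2.

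Ratios of 2 genes within a library do not depend on how libraries are scaled, and 4 ratios were taken after the values had been seen, in 20 comparisons of 3 libraries with 3, where an exact permutation test (two-sided) cannot give a p below 0.1. The log2 ratio of INO2 to OPI1, activator to repressor, was -0.28, 0.59 and 1.10 at 240 min in courses 1, 2 and 3, against -1.69, -0.66 and -0.34 at 30 min, a difference of 1.36 with all 3 courses between 1.25 and 1.44 (exact permutation p = 0.1). Against 0 min, where the ratio was -1.49, -0.25 and -1.07, the difference at 240 min was 1.40 and the groups overlapped (exact permutation p = 0.2). The log2 ratio of OPI3 to CHO2, the later to the earlier methyltransferase, was -0.98, -1.49 and -1.72 at 240 min, against -2.73, -2.78 and -2.08 at 0 min, a difference of 1.13 with no overlap (exact permutation p = 0.1). OPI3 relative to CHO1 was higher at 240 min than at 0 min by 1.50, 1.29 and 1.27 in the 3 courses (mean 1.35, exact permutation p = 0.1). HNM1 relative to ITR1 was lower at 30 min than at 0 min in all 3 courses, with a mean difference of -0.60 (exact permutation p = 0.1). Adjusted over 20 comparisons none of these could pass by this test, which does not pair the courses.

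**Figure D4:**
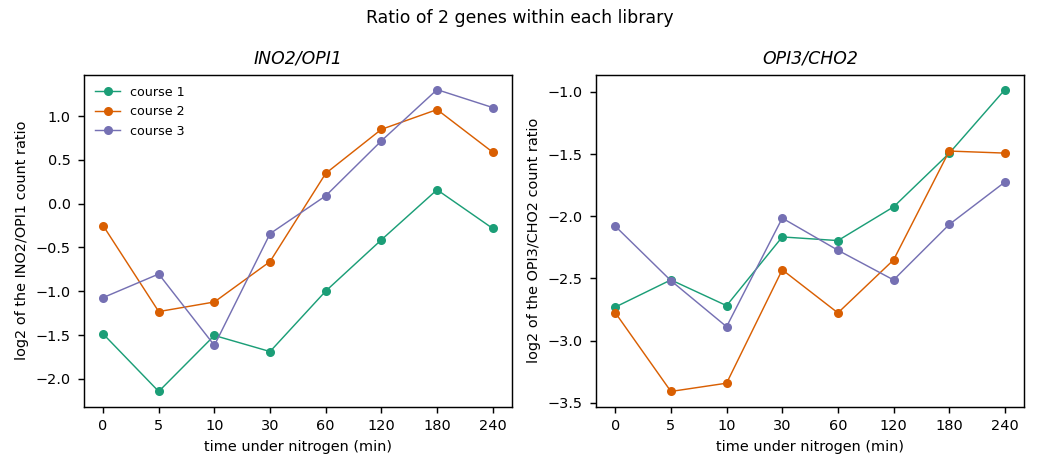
Log2 ratio of the counts of INO2 to OPI1 (left) and of OPI3 to CHO2 (right) within each library (vertical axes) against time under nitrogen (horizontal axes, in min, evenly spaced), with 1 line per course. The INO2 to OPI1 ratio is above its 0 min value in every course at 120, 180 and 240 min, and the OPI3 to CHO2 ratio at 240 min lies between -1.72 and -0.98 in all 3 courses.

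The 9 genes did not follow one course. Across the 24 libraries, with each course centred on its mean log2 CPM (2 counts added), the most alike pair was the transporter genes ITR1 and HNM1 (Pearson's r = 0.83), followed by PSD1 and OPI1 (r = 0.72), and the least alike pair was CHO2 and OPI1 (r = -0.40). INO1 and INO2 had r = 0.57. These are descriptions over libraries that share their courses and times. Among all genes tested, the list and the wider pathway included, the genes most like INO1 by the same measure were PAU23 (r = 0.88), PAU17 (r = 0.86) and PBI1 (r = 0.86). The PAU genes are so alike in sequence that their reads may be split among copies. Those most like INO2 were LEC1 (r = 0.97), PXP2 (r = 0.95) and ICT1 (r = 0.94).

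Of 41 further genes of phospholipid metabolism, all past the filter on low counts, edgeR called 12 over time, 11 of them with a rise and 1 with a fall as the largest change (19.8% of all genes were called), and 15 with the course as a replicate block (29.2%). At 240 min against 0 min 8 were higher (7.14% of all genes) and 1 lower (8.43%), with a median log2 fold change of 0.40. The calls fell among phosphatidic acid synthesis (4 of 6 genes called over time), phosphatidate phosphatases with the kinase that opposes them (3 of 7), the Kennedy pathway (2 of 6) and lipid turnover (3 of 7), and none of the calls over time was among the 4 other regulators, the 4 other inositol genes, the 3 other genes of the CDP-diacylglycerol branch or the 4 cardiolipin genes. PIS1, which encodes phosphatidylinositol synthase, stood at 173 ± 37.1 CPM at 240 min, against 120 ± 21.9 CPM at 0 min, a log2 fold change of 0.52 ± 0.25 (adjusted p = 0.153) that passed the adjusted p with the block (0.49, adjusted p = 0.033). ITR2, the gene of a second inositol transporter, had a log2 fold change of -0.33 ± 0.37 at 240 min (adjusted p = 0.621).

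Over time and at 5, 30, 120 and 240 min against 0 min the block changed a call of 4 pathway genes, which were named after their values were seen. CKI1, which encodes choline kinase of the Kennedy pathway, stood at 212 ± 72.5 CPM at 240 min, against 96.7 ± 48.7 CPM at 0 min (SD, n = 3), a log2 fold change of 1.13 ± 0.57 (edgeR adjusted p = 0.179), and with the block it was 1.23 (adjusted p = 3.1e-07). INM2, which encodes an inositol monophosphatase, had 31.0 ± 1.03 CPM at 30 min, against 14.5 ± 2.46 CPM at 0 min, and was called at that time (1.09 ± 0.28, adjusted p = 0.00574), but over time only with the block (adjusted p = 0.0303, against 0.0964 without it). LPP1, which encodes a phosphatidate phosphatase, was likewise called over time only with the block (adjusted p = 0.0174, against 0.0847 without it). GEP4, which encodes the phosphatase of cardiolipin synthesis, had 12.2 ± 8.50 CPM at 30 min, against 27.1 ± 8.30 CPM at 0 min, a log2 fold change of -1.15 ± 0.65 (adjusted p = 0.228), and with the block it was -1.29 (adjusted p = 0.00198).

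The 6 genes of these 41 that were called over time with the largest changes included 3 that peaked at 180 or 240 min. ALE1, which encodes an acyltransferase acting on lysophospholipids, stood at 977 ± 175 CPM at 240 min, against 159 ± 33.6 CPM at 0 min (SD, n = 3), a log2 fold change of 2.62 ± 0.28 (edgeR adjusted p = 2.16e-06). NEM1, which encodes the catalytic subunit of the phosphatase that activates the phosphatidate phosphatase Pah1, stood at 203 ± 24.7 CPM at 240 min, against 42.7 ± 14.3 CPM at 0 min (log2 fold change 2.25 ± 0.28, adjusted p = 7.85e-06). PLB2, the gene of a phospholipase B, had 544 ± 18.2 CPM at 240 min, against 170 ± 61.5 CPM at 0 min (1.68 ± 0.24, adjusted p = 3.73e-05). ALE1, NEM1 and PLB2 were already called at 120 min, with log2 fold changes of 2.33, 2.04 and 1.82. The other 3 had their largest change at 30 min.

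GPT2, which encodes an acyltransferase at the first step of phosphatidic acid synthesis, had 286 ± 33.5 CPM at 30 min, against 63.2 ± 11.0 CPM at 0 min (log2 fold change 2.18 ± 0.23, edgeR adjusted p = 6.76e-07). GPT2 was also called at 5, 120 and 240 min, with log2 fold changes of 1.42, 1.13 and 1.11. AYR1, the gene of a reductase of the same pathway, had 259 ± 37.5 CPM at 30 min, against 87.9 ± 33.4 CPM at 0 min (1.56 ± 0.25, adjusted p = 7.39e-05). GIT1, the gene of a glycerophosphoinositol permease, had 39.0 ± 21.3 CPM at 30 min, against 12.2 ± 3.57 CPM at 0 min (1.68 ± 0.38, adjusted p = 0.00206), and without course 2 it did not pass (adjusted p = 0.0928). The one gene called lower at 240 min, named after its value was seen, was DGK1, which encodes the diacylglycerol kinase that makes phosphatidic acid: it had 41.2 ± 2.31 CPM at 240 min, against 99.9 ± 22.7 CPM at 0 min (-1.28 ± 0.24, adjusted p = 0.000546). The summed stress genes were also highest at 30 min, and their part in the values of that time was not tested.

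**Figure D5:**
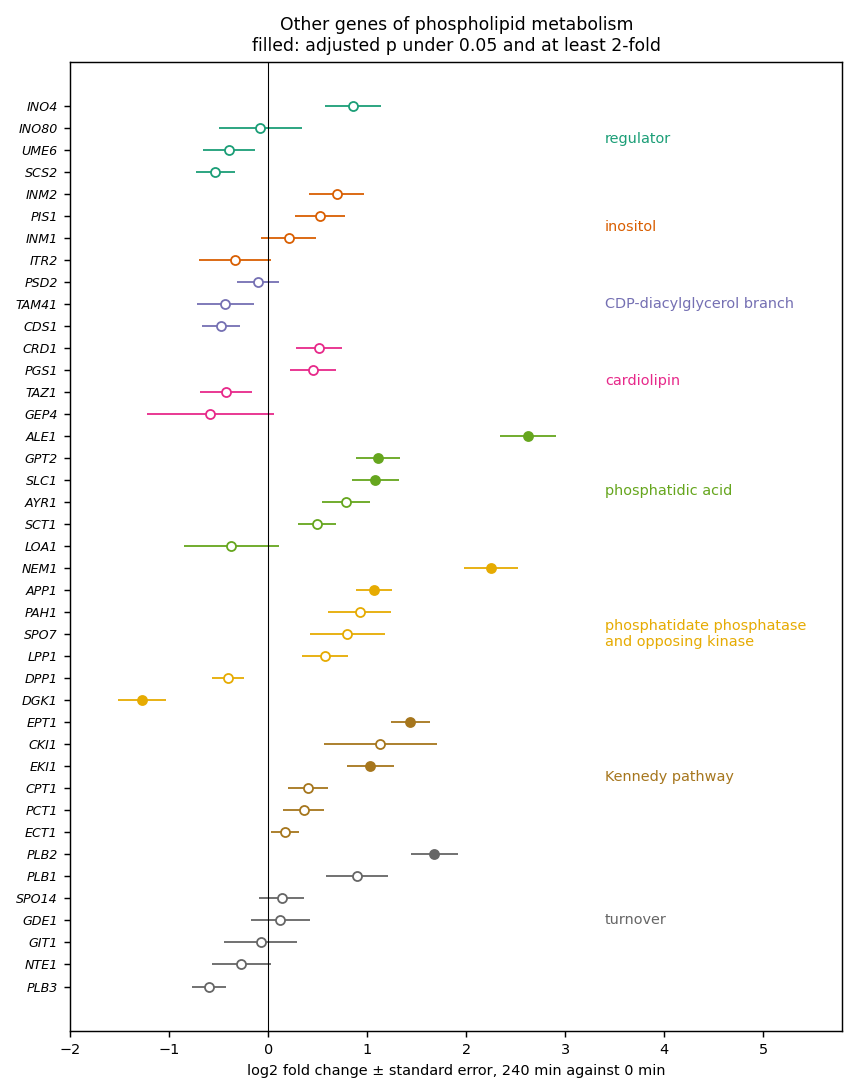
Log2 fold change at 240 min against 0 min (horizontal axis, with standard errors) of the 41 other genes of phospholipid metabolism, grouped and coloured by role. Filled points have an adjusted p under 0.05 and at least a 2-fold change: 8 lie to the right, led by ALE1 at 2.62 and NEM1 at 2.25, and DGK1 at -1.28 lies to the left.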

How the data were processed

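Whole-number counts for each feature were deposited. The authors trimmed reads, mapped them to the S288C genome (build R64) with TopHat2 and counted them with HTSeq. The tools' versions and HTSeq's strand setting are not given in the sources used here. The kit named in the labels does not mark strand, so antisense RNA cannot be told apart. No annotated RefSeq gene overlaps any of the 9 genes; dubious reading frames outside that annotation were not checked. HTSeq's own summary lines, given in courses 2 and 3, were left out of library totals: reads outside any feature were 3.81% to 5.60% of those lines and the counts together, ambiguous ones 0.266% to 0.346%, and non-unique alignments 57.8 to 122 per 100 counted reads. Library preparation is described in the study for a single course, and whether the others were made alike is not given in the sources used here.

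Counts were analysed with edgeR 4.0.16 (TMM factors, filterByExpr, quasi-likelihood test, Benjamini-Hochberg adjustment) in R 4.3.3, with time as a factor and no block, and DESeq2 1.42.0 as an alternative. The edgeR fit without a block and DESeq2 were checked on simulated independent libraries with no course effect. That check does not show how they behave with the course differences seen here. The replicate numbers mark time courses, per the series' design, and the residuals of same-course libraries correlated in every one of 28 pairs per course (r from 0.50 to 0.91), so values from the fit with the course as a replicate block are given where they change a call of the 9 genes or of a pathway gene. The biological coefficient of variation was 0.59, and 0.20 with the block. Named were all 9 genes, INO4, ITR2, PSD2 and PIS1, the 6 of 41 pathway genes called over time with the largest change (ALE1, NEM1, GPT2, PLB2, GIT1 and AYR1), and the 3 genes most like INO1 and like INO2. The genes, lists and tests were chosen with earlier results of these data known. Alternatives were another tool, scaling, filter, fold minimum and model of time, and leaving out libraries.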

Additional observations from a re-analysis of the deposited data

How the results depend on the processing

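The counts of the 9 genes called kept within 1.5 times under RLE factors and without a filter on low counts. At 120 min against 0 min 1 gene was called by DESeq2 and 1 with total-count scaling (INO1 in both), in place of 0. All genes called there were 717 and 634 of 6262. Without a fold minimum 1 was called at 5 min (INO2) and 2 at 30 min (HNM1 and INO2), in place of 0. The DESeq2 part of the study's design, time and its square on course 1, called 5, where 703 of 2868 genes with at least a 2-fold range were called. The study also took genes found by AutoCor, which was not run here, so these are not its full calls. Leaving out 1 course at a time, the count over time was 0 to 4, at 5 min 0 to 1, at 30 min 0 to 1, at 120 min 0 to 2, at 240 min 1 to 2, and at 240 min against 30 min 0 to 2. All genes called moved as well, from 4 to 778 at 5 min, 666 to 1576 at 30 min and 81 to 1082 at 120 min. They were 375 to 1420 at 240 min and 77 to 682 at 240 min against 30 min, of 5875 to 6319 tested. Leaving out a course also changes the estimate of the spread, which without a block includes the differences between courses. All genes called over time then numbered 340 without course 2, 475 without course 3 and 2065 without course 1, against 1241 with all courses. With the block they numbered 1480, 1582 and 2078, against 1830.

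With the course as a replicate block 2 genes were called at 120 min, INO1 and OPI1, and 4 over time, and apart from the values given with the results the block changed no call of the 9 genes reported here. Alternatives chosen after seeing the data left out the 0 min library of course 3 (1 gene called at 30 min, OPI3), the same with the block (1 at 30 min, OPI3, and 1 at 120 min, INO1), and single courses with the block (0 to 1 at 30 min, 0 to 2 at 120 min, 1 to 2 at 240 min, 2 to 3 at 240 min against 30 min). Without that library 986 of all 6338 genes were called at 30 min, and with the block 1236 at 30 min and 709 at 120 min. Without single courses and with the block, all genes called were 1213 to 1579 at 30 min and 634 to 1086 at 120 min. They were 1039 to 1429 at 240 min and 450 to 677 at 240 min against 30 min. Directions turned for values near 0 that did not pass with all libraries: at 240 min against 0 min CHO1 was 0.12 with all courses and -0.32 to 0.55 without 1 course (-0.31 without course 1 under the block), HNM1 was 0.20 and -0.0819 to 0.79 (-0.0740), and PSD2 was -0.10, 0.18 with total-count scaling, and -0.14 to 0.0121 without 1 course (0.0328 without course 3 under the block). Total-count scaling moved the median of all genes by up to 0.28 on the log2 scale. The depth limits INO1 most, at 46 counts in its lowest library.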
